A study of Mus musculus with 12 samples.

Results

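The genes described are the voltage-gated ion channel and potassium channel genes listed in the deposited mouse RNA-seq tables, 105 of 14610 genes with a name. They were chosen by symbol alone, as names starting with Kcn, the Scn genes for sodium channel alpha and beta subunits, the Cacna, Cacnb and Cacng genes, and Hcn genes, without antisense or overlapping transcripts. The sodium channel gene that the files name Scn2a1 falls outside this rule. By symbol they fall into voltage-gated potassium channels (33 genes), calcium channel auxiliary subunits (12), potassium channel accessory subunits (11), inward rectifiers (10), potassium channels with a pair of pore domains (9), calcium channel alpha1 subunits (9), calcium- and sodium-activated potassium channels (7), sodium channel alpha subunits (6), sodium channel beta subunits (4) and HCN channels (4).

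The libraries come from PDGF-driven mouse neural stem cells, cultured with epidermal and basic fibroblast growth factors on coated plates. The series' design text calls them mouse cells of diffuse intrinsic pontine glioma (DIPG). They carry histone H3.3, either in its wild-type form (WT) or with lysine 27 replaced by methionine (K27M), and each genotype was kept for 12 days in the solvent DMSO or in 3 µM EPZ6438, which blocks the enzyme EZH2. This gives 4 groups of 3 libraries, and all 4 share the PDGF background, which the sample names give as PDGFB. The labels do not say whether replicates were separate cultures or how many cell lines were used, and the p-values below rest on the spread among these libraries alone, which may be technical. Libraries held 7.91 to 24.1 M estimated counts, and depth differed between groups. It was 10.8 to 15.8 M in WT DMSO and 22.1 to 24.1 M in K27M DMSO. With inhibitor it was 7.91 to 13.6 M in WT and 10.9 to 14.6 M in K27M cells. Libraries were not brought to equal depth before genes were counted as tested or called. WT DMSO replicate 1 stood apart, with a chi-square per gene of 22.5 and 18.6 against its 2 partners, which differed from each other by 2.83. Levels printed beside a test are sums over the transcripts that the table of that comparison lists, so a gene's level in a group can differ between comparisons. Neural stem cell markers were abundant, with a summed level of 6502 to 7528 CPM (counts scaled to the library total) over 8 genes in the 12 libraries.

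Voltage-gated channels open when the membrane potential changes: sodium and calcium channels let cations in, and potassium channels let potassium out and restore the resting potential. Inward rectifiers and channels with a pair of pore domains set the resting potential, and in glia Kcnj10 carries the uptake of extracellular potassium. HCN channels open on hyperpolarization and carry a cation current that paces firing. EZH2 is the enzyme of the PRC2 complex, which methylates lysine 27 of histone H3 and holds many developmental and neuronal genes silent, and the K27M histone is known to impair PRC2.

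Per transcript length, averaged over the 12 libraries on the TPM scale, the highest levels were those of Kcnmb4 (193), the neuronal beta subunit of the large-conductance calcium-activated channel, Kcnc1 (118), a fast delayed rectifier, and Kcnd3 (116), an A-type channel. Kcnip3, a calcium-binding partner of A-type channels, stood at 73.8 and the T-type calcium channel Cacna1h at 64.1. Kcnj10 stood at 45.8 and its partner subunit Kcnj16 at 47.8. In CPM, 39 of the 105 genes averaged at least 10 and 30 averaged under 1, and fold changes of the latter rest on few counts. Summed over all 105 genes, the level was 2272 to 2315 CPM in WT DMSO and 2105 to 2153 CPM in K27M DMSO. Under the inhibitor it was 2389 to 2492 CPM in WT and 2451 to 2462 CPM in K27M cells, above every DMSO library.

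The stretches before the transcription start are shown for 4 genes that behaved differently: the pair of inward rectifiers that fell with the inhibitor, a calcium channel that rose in both genotypes and a potassium channel that moved in opposite directions. Each is the 250 bases upstream of the RefSeq start nearest to the most abundant transcript (RefSeq, build GRCm38.p6), 5′ to 3′ on the gene's strand, and capitals mark CG dinucleotides, the sites of DNA methylation. The regions are chr1:172340960-172341209 on the plus strand for Kcnj10, chr11:110997237-110997486 on the plus strand for Kcnj16, chr2:24763153-24763402 on the minus strand for Cacna1b and chr2:63184288-63184537 on the minus strand for Kcnh7.
Kcnj10: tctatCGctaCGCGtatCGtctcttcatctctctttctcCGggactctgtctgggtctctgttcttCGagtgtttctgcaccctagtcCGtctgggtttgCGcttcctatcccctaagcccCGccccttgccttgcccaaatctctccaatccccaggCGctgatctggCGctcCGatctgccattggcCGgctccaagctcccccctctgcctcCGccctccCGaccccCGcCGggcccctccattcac
Kcnj16: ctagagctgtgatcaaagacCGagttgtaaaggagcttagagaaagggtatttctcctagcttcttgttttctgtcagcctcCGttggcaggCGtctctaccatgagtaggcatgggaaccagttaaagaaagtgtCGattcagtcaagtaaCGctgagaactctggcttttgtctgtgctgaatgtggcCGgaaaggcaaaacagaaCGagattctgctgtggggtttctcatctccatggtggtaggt
Cacna1b: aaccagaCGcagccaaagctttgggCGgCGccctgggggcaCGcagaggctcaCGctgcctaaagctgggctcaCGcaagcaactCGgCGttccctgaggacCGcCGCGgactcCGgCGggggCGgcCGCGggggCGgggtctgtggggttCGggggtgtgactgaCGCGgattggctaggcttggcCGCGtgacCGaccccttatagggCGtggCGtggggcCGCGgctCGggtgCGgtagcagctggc
Kcnh7: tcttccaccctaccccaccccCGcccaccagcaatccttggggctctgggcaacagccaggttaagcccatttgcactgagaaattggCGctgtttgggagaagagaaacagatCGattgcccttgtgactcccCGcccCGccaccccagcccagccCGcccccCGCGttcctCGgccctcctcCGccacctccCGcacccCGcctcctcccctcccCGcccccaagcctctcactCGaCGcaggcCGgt
Kcnj10 has 17 CG in these bases, a number that 23.5% of all 32851 RefSeq promoter windows reach, and Kcnj16 has 7, reached by 46.3%. Cacna1b has 29, reached by 6.78%, and Kcnh7 has 16, reached by 25.4%. RefSeq promoter entries were found for 75 of the 105 genes (71.4%), under the 80% needed for a comparison over the list, so none was made.

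Kcnj10, the inward rectifier of glia, passed the test in every comparison. Its level was 185, 190 and 199 CPM in WT DMSO, 100, 102 and 94.9 CPM in K27M DMSO, 78.4, 85.1 and 82.2 CPM in WT with inhibitor and 53.6, 47.9 and 53.8 CPM in K27M with inhibitor. No 2 of the 4 groups overlapped, and the order ran from WT DMSO down to K27M with inhibitor. K27M cells had 1.88-fold less than WT in DMSO (log2 fold change -0.91, SE 0.05, edgeR adjusted p = 0.000262). The inhibitor lowered it 2.29-fold in WT (log2 fold change -1.19, SE 0.06, edgeR adjusted p = 3.25e-05) and 1.92-fold in K27M cells (log2 fold change -0.94, SE 0.05, edgeR adjusted p = 2.58e-07). Under the inhibitor K27M cells still had 1.59-fold less (log2 fold change -0.67, SE 0.06, edgeR adjusted p = 0.00486).

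The fall of Kcnj10 was smaller in K27M than in WT cells by 0.29 on the log2 scale (SE 0.08, edgeR adjusted p = 0.0207 for the interaction). That difference did not hold when any of 7 libraries was left out: the adjusted p was 0.0729 without WT DMSO replicate 3, 0.0533 without K27M DMSO replicate 1, 0.0518 without K27M DMSO replicate 3, 0.0699 without WT inhibitor replicate 1, 0.0575 without WT inhibitor replicate 3, 0.0596 without K27M inhibitor replicate 1 and 0.0749 without K27M inhibitor replicate 3. Over the 12 libraries the genes with the most similar pattern, by Pearson correlation of log2 CPM (pseudocount 0.5), were Gm2a (r = 0.990), Slc6a11 (0.987), Arsa (0.986), Slc6a9 (0.983) and Smoc1 (0.979). These are descriptions of 12 points that share 4 groups.

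Kcnj16 forms a channel with Kcnj10, and its levels were 125, 101 and 70.1 CPM in WT DMSO and 103, 98.5 and 89.9 CPM in K27M DMSO. The groups overlapped and the genotype difference did not pass the test (log2 fold change 0.01, SE 0.21, edgeR adjusted p = 0.973), but the value depended on the trend with GC content: with each library's trend removed it was -0.54 (adjusted p = 0.0203). The inhibitor lowered Kcnj16 in K27M cells to 45.3, 44.3 and 48.9 CPM (log2 fold change -1.08, SE 0.06, edgeR adjusted p = 2.9e-07). In WT cells it went to 61.8, 50.0 and 54.0 CPM (log2 fold change -0.82, SE 0.22, edgeR adjusted p = 0.0221), and this call was lost without WT inhibitor replicate 1, 2 or 3 (adjusted p = 0.0504, 0.0669 and 0.0791).

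**Figure D1:**
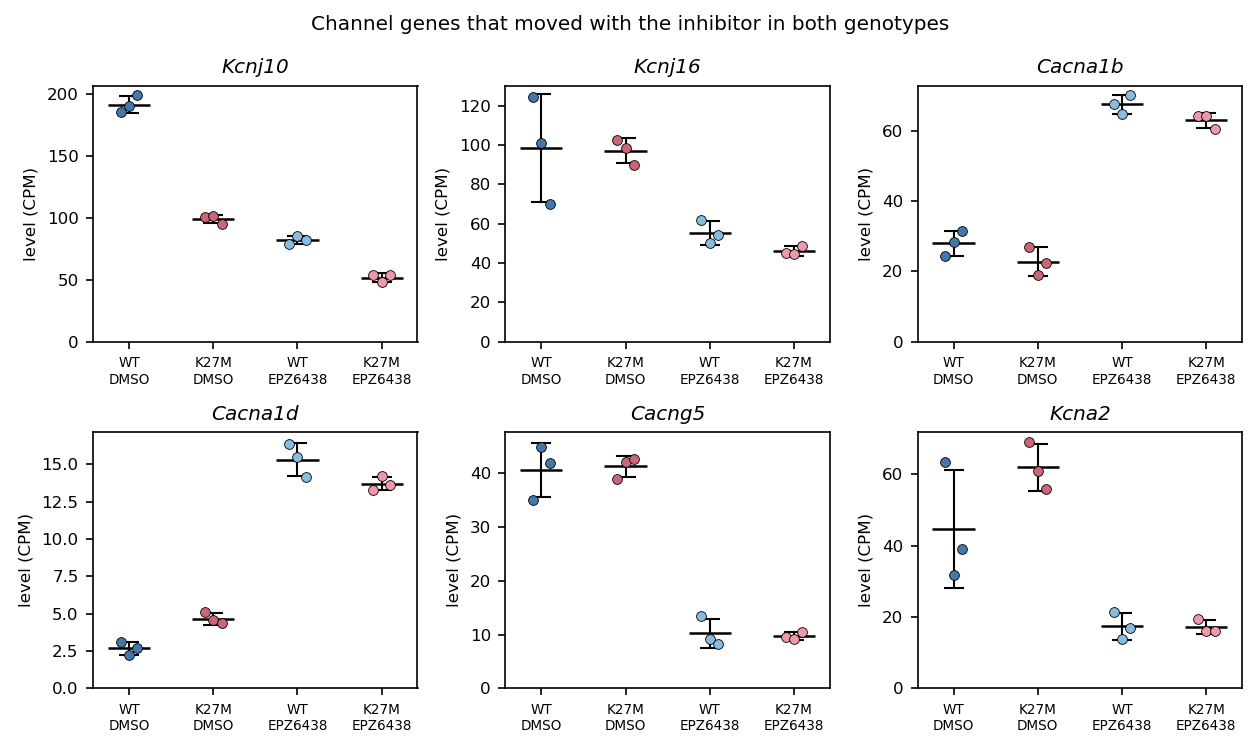
Level in CPM of 6 channel genes in each library (points), with mean and SD (lines) for the 4 groups of 3 libraries, linear axes from 0. Kcnj10 steps down over all 4 groups, Cacna1b and Cacna1d lie higher in both inhibitor groups, and Kcnj16, Cacng5 and Kcna2 lie lower. Levels are summed over transcripts listed in any table.

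The first comparison asks how channel genes respond to 12 days of EZH2 inhibition in WT cells. Of 78 channel genes tested, 30 rose and 13 fell (edgeR, adjusted p below 0.05), while 21.4% of all genes tested rose and 20.7% fell, 42.1% in either direction. The median log2 fold change was 0.24 over the channel genes and 0.04 over all genes. It was 0.17 for the 53 channel genes at or above their median level of 3.57 CPM and 0.98 for the 25 below it. Without WT DMSO replicate 1, the library that stood apart, 30 rose and 16 fell, and without WT DMSO replicate 3 the number that rose was 19. In K27M cells, 43 of 91 rose and 22 fell, beside 28.9% and 27.3% of all genes and 56.3% in either direction, with medians of 0.51 for the channel genes and 0.01 for all genes. The channel gene median there was 0.32 at or above 3.57 CPM and 0.67 below it. Of the genes that rose, 23 did so in both genotypes, which is 76.7% of those in WT and 53.5% of those in K27M cells. Of those that fell, 10 were shared, 76.9% of the WT and 45.5% of the K27M list. The matching overlap over all genes was not computed, so these shares are not read as particular to channel genes. In the authors' deposited tables, which test single transcripts, 9 transcripts of these genes rose and 9 fell of 180 in WT cells, and 23 rose and 16 fell of 208 in K27M cells (q below 0.05). The matching shares of all transcripts were not computed, so these counts are not read as a trait of channel genes.

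Neuronal markers moved at the same time: 8 of 11 rose and 1 fell in WT, 8 of 11 rose and 3 fell in K27M cells, and their summed level was 269 to 272 CPM in WT DMSO and 276 to 328 CPM in WT with inhibitor, 246 to 259 CPM in K27M DMSO and 299 to 307 CPM in K27M with inhibitor. Of markers of oligodendrocyte precursors, 3 of 6 fell and none rose in WT, and 4 of 6 fell and 1 rose in K27M cells, with summed levels of 3256 to 3994 CPM in WT DMSO, 2653 to 2855 CPM in K27M DMSO, 1730 to 1962 CPM in WT with inhibitor and 1802 to 1923 CPM in K27M with inhibitor. Of astrocyte markers, 4 of 8 fell and 1 rose in WT, and 5 of 8 fell and 3 rose in K27M cells, with summed levels of 3052 to 3073, 2676 to 2689, 2558 to 2734 and 2191 to 2269 CPM in the same order of groups. Of markers of mature oligodendrocytes, 2 of 4 fell in WT and 4 of 4 in K27M cells, with summed levels of 222 to 258, 156 to 161, 103 to 110 and 82.5 to 88.1 CPM. Both tested endothelial markers rose in each genotype, with summed levels of 10.9 to 12.0, 8.17 to 9.94, 23.1 to 25.8 and 25.5 to 29.6 CPM. Low levels were summed for muscle markers, at 2.72 to 5.15, 9.15 to 10.4, 1.24 to 1.76 and 0.897 to 1.96 CPM, with the 1 tested gene lower in each genotype, and for microglial markers, at 0 to 0.453, 0.964 to 1.17, 1.47 to 2.01 and 1.97 to 2.69 CPM, with 1 of 2 higher in K27M cells and none tested in WT. The microglial genes Aif1, Csf1r, Cx3cr1 and Itgam, the endothelial genes Cdh5 and Cldn5, the muscle genes Myh3, Myod1, Myog and Tnnt3 and the myelin genes Mag, Mobp and Mog were not listed. In these bulk libraries, fewer cells of a type and less RNA per cell cannot be told apart, and the part of these markers in the channel changes was not tested.

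Most calcium channel alpha1 subunits, which form the pore, rose with the inhibitor. In WT cells 6 of 7 tested genes rose and none fell, and in K27M cells 7 of 8 rose and 1 fell. The WT count was 3 without WT DMSO replicate 2 or without WT DMSO replicate 3, through Cacna1a, Cacna1h and Cacna1i. Cacna1b, the N-type channel of presynaptic terminals, stood at 24.2, 28.4 and 31.3 CPM in WT DMSO and at 67.5, 64.8 and 70.0 CPM with inhibitor, without overlap (2.46-fold, log2 fold change 1.30, SE 0.09, edgeR adjusted p = 9.33e-05). In K27M cells it went from 27.1, 18.9 and 22.4 to 64.3, 64.1 and 60.5 CPM (2.76-fold, log2 fold change 1.47, SE 0.10, edgeR adjusted p = 1.69e-06).

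Cacna1d, an L-type channel, rose more, from 3.09, 2.23 and 2.72 to 16.3, 15.5 and 14.1 CPM in WT (log2 fold change 2.53, SE 0.16, edgeR adjusted p = 7.01e-05). In K27M cells it went from 5.12, 4.56 and 4.34 to 13.3, 14.2 and 13.6 CPM (log2 fold change 1.55, SE 0.10, edgeR adjusted p = 9.65e-07). Its DMSO level was already higher in K27M cells. Cacna1g, a T-type channel, rose by a log2 fold change of 2.03 in WT and 1.28 in K27M cells.

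Cacna1h, the T-type channel with the highest level of the family, rose in K27M cells from 107, 109 and 120 to 167, 193 and 186 CPM (log2 fold change 0.70, SE 0.06, edgeR adjusted p = 1.21e-05). In WT it rose less, by a log2 fold change of 0.25 (edgeR adjusted p = 0.012), and that call was lost without WT DMSO replicate 2 (0.0586), WT DMSO replicate 3 (0.0888) or WT inhibitor replicate 3 (0.0546). The exception was Cacna1c, the L-type channel of heart and brain, which fell in K27M cells from 61.4, 58.6 and 58.6 to 49.2, 47.0 and 48.4 CPM (log2 fold change -0.31, SE 0.04, edgeR adjusted p = 0.000151).

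Among genes grouped by symbol as auxiliary calcium channel subunits, 5 of 11 rose and 2 fell in WT, and 8 of 12 rose and 2 fell in K27M cells. Leaving out each library gave 4 to 5 rises and 2 to 3 falls in WT, and 6 to 8 rises and 2 falls in K27M cells. The Cacna2d and Cacnb subunits direct traffic and gating of the pore, while Cacng4 and Cacng8 of the gamma family are AMPA receptor regulators. Cacnb2, a cytoplasmic beta subunit, rose by a log2 fold change of 1.18 in WT and 0.72 in K27M cells, and Cacna2d3, an extracellular subunit, by 1.34 and 0.80. Cacng5, a member of the gamma family, went the other way. It fell from 35.0, 44.9 and 41.8 to 13.4, 9.18 and 8.26 CPM in WT (3.9-fold, log2 fold change -1.96, SE 0.17, edgeR adjusted p = 0.000246). In K27M cells it fell from 39.0, 42.1 and 42.7 to 9.52, 9.15 and 10.6 CPM (4.27-fold, log2 fold change -2.09, SE 0.07, edgeR adjusted p = 1.71e-08). Cacng7 has 2 gene identifiers with identical values, so its level is uncertain, and it was counted once.

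Voltage-gated potassium channels moved both ways: 10 of 25 rose and 4 fell in WT, and 13 of 28 rose and 9 fell in K27M cells. The WT number that rose was 4 without WT DMSO replicate 3, 5 without WT inhibitor replicate 1 and 5 without WT inhibitor replicate 3. Several of the larger rises were in genes near 0 in DMSO, such as Kcnh3 with 13 counts in WT DMSO and 72 with inhibitor. Listing needs 3 libraries at 5 or more counts. A gene that meets this only through the inhibitor libraries can appear only as a rise.

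Kcnq3, a subunit of the M-current channel that restrains repetitive firing, stood at 1.74, 0.485 and 0.994 CPM in WT DMSO and at 6.13, 4.18 and 4.84 CPM with inhibitor, without overlap (log2 fold change 2.20, SE 0.40, edgeR adjusted p = 0.00546). In K27M cells it rose by a log2 fold change of 1.26. Kcna1, an axonal delayed rectifier, rose from 1.06, 1.16 and 0.265 to 10.1, 8.25 and 12.0 CPM in WT (log2 fold change 3.67, SE 0.41, edgeR adjusted p = 0.000633) and from 1.85, 1.27 and 0.919 to 11.2, 9.39 and 8.93 CPM in K27M cells (log2 fold change 2.87, SE 0.21, edgeR adjusted p = 2.27e-06). Kcnh3, of the ether-a-go-go group, rose by 2.80 and 2.36 on the log2 scale, to 2.37 and 2.15 CPM. Kcna2, which pairs with Kcna1 in axonal channels, fell instead, from 63.4, 31.8 and 39.0 to 21.4, 13.7 and 16.9 CPM in WT (log2 fold change -1.37, SE 0.30, edgeR adjusted p = 0.0112). In K27M cells it fell from 68.9, 60.8 and 55.9 to 19.4, 15.9 and 16.1 CPM (log2 fold change -1.85, SE 0.10, edgeR adjusted p = 1.94e-07). Kcnh2, which carries the repolarizing current of the heart, fell by log2 fold changes of -0.81 and -0.56.

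Among accessory potassium channel subunits, Kcnip1, a calcium-binding partner of A-type channels, fell from 50.6, 58.6 and 55.1 to 19.8, 15.4 and 11.3 CPM in WT, as sums over the transcripts that this comparison's table lists (log2 fold change -1.79, SE 0.18, edgeR adjusted p = 0.000405). In K27M cells it fell from 49.2, 48.6 and 45.9 to 16.1, 19.6 and 17.9 CPM (log2 fold change -1.44, SE 0.07, edgeR adjusted p = 1.72e-07). Kcnmb4 rose in both, from 80.3, 94.9 and 89.8 to 135, 158 and 139 CPM in WT (log2 fold change 0.74, SE 0.09, edgeR adjusted p = 0.000849) and from 49.7, 46.5 and 47.8 to 126, 126 and 122 CPM in K27M cells (log2 fold change 1.37, SE 0.04, edgeR adjusted p = 4.7e-09). Its pore subunit Kcnma1 rose too, by log2 fold changes of 1.26 and 1.70, the former lost without WT inhibitor replicate 3 (adjusted p = 0.0556). Kcnt1, the sodium-activated channel, rose by 1.49 and 1.85 on the log2 scale.

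The remaining families were small. HCN channels rose in 2 of 3 tested genes in WT and 3 of 3 in K27M cells. Hcn4 went from 0.226, 0.097 and 0.132 to 1.64, 1.29 and 1.13 CPM in WT (log2 fold change 3.06, SE 0.43, edgeR adjusted p = 0.0017). It had 6 counts in WT DMSO and 41 with inhibitor, and 2 and 40 in K27M cells. With so few DMSO counts it could be listed only through the inhibitor libraries, so its rise adds no support to the family counts. Over all transcripts listed in any table, Hcn2 stood at 9.05, 8.54 and 9.14 CPM in WT DMSO and at 10.2, 8.68 and 7.13 CPM with inhibitor. The table of that comparison lists fewer of its transcripts, which leaves 5.90 CPM in WT DMSO replicate 3 and 3.36 CPM in WT inhibitor replicate 3. The groups overlapped and the difference did not pass the test on either sum (log2 fold change -0.04, edgeR adjusted p = 0.939, and -0.02, adjusted p = 0.927, over all transcripts). In K27M cells Hcn2 rose from 4.15, 4.82 and 4.64 to 8.62, 8.99 and 9.30 CPM (log2 fold change 0.97, SE 0.11, edgeR adjusted p = 5.32e-05). Of sodium channel alpha subunits, 2 of 4 rose in WT and 2 of 6 rose and 1 fell in K27M cells. The one that fell is Scn1a, for which the tables list different transcripts, so no fold is given. The WT number was 3 without WT DMSO replicate 1, 1 without WT DMSO replicate 2 or 3 or WT inhibitor replicate 2, and 0 without WT inhibitor replicate 1 or 3, and the K27M number that rose was 1 without K27M DMSO replicate 2 or K27M inhibitor replicate 3. Scn8a, the main channel of axon initial segments, rose by log2 fold changes of 0.65 and 0.58, the former lost without WT inhibitor replicate 1 (adjusted p = 0.0586) or replicate 3 (0.0650).

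Among sodium channel beta subunits, 1 of 2 rose and 1 fell in WT (median log2 fold change -0.67), and 2 of 4 rose and none fell in K27M cells. Scn3b rose by 0.91 and 1.11 on the log2 scale. The other beta subunit gene that rose in K27M cells had 3 counts in K27M DMSO and 51 with inhibitor. With so few DMSO counts it could be listed only through the inhibitor libraries, so its rise adds no support to the family count. Inward rectifiers held no gene that rose in WT, and 2 of 6 fell, Kcnj10 and Kcnj16. In K27M cells 3 of 6 fell, the same 2 and Kcnj2, and Kcnj4 rose (log2 fold change 0.66, edgeR adjusted p = 0.0208), a call lost without K27M DMSO replicate 1 (0.0693), K27M DMSO replicate 2 (0.0645), K27M inhibitor replicate 1 (0.0570) or replicate 2 (0.0798). Of channels with a pair of pore domains, 3 of 6 fell and none rose in WT, and 3 of 8 rose and 3 fell in K27M cells. Leaving out each library gave 2 to 3 falls and 0 to 1 rises in WT, and 2 to 3 of each in K27M cells.

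**Figure D2:**
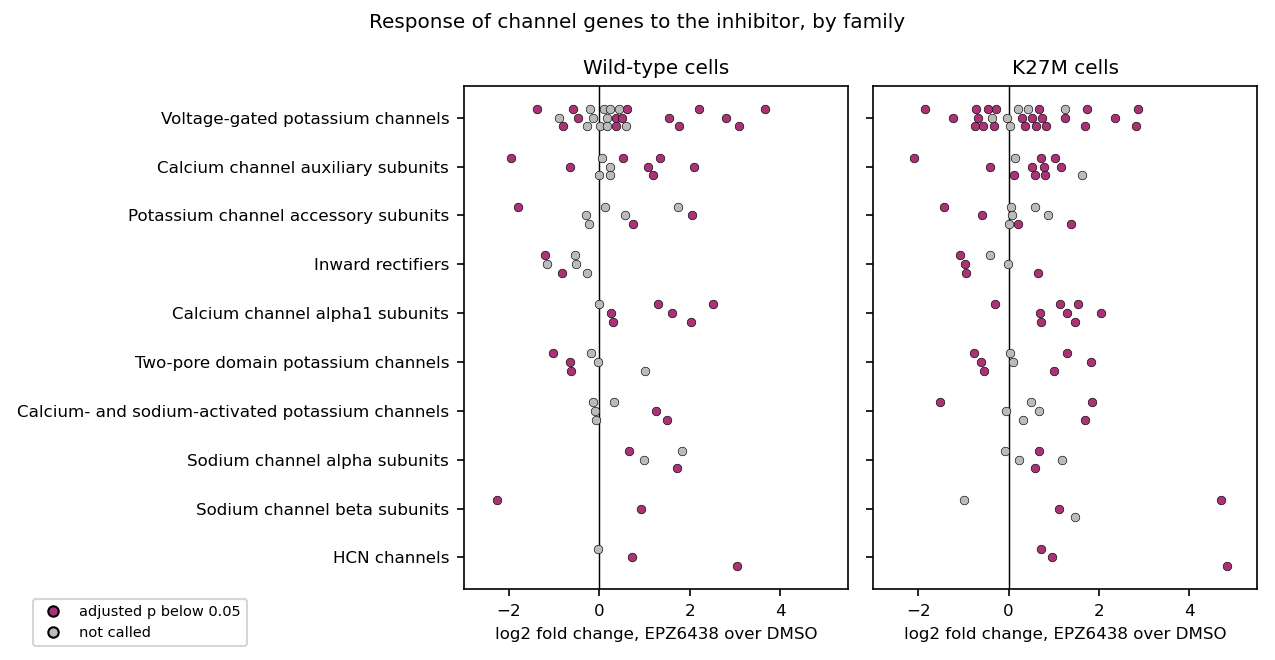
Log2 fold change of each tested channel gene (points), inhibitor over DMSO, in WT cells (left) and K27M cells (right), by family, with genes called at an adjusted p below 0.05 in purple and others in grey. Calcium channel alpha1 subunits lie almost all to the right of 0, while the inward rectifiers lie mostly to the left. Scn1a, with no counts in 1 group, is left out.

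The genotype comparison in DMSO asks which channel genes differ with the K27M histone. Of 81 tested, 16 were higher and 22 lower in K27M cells, beside 29.8% and 30.4% of all genes (60.1% in either direction). A smaller share of the channel genes than of all genes was called, and most of the shortfall lay among the less abundant ones. Of 53 at or above the channel genes' median level of 3.57 CPM, 11 were higher and 20 lower. Of 28 below it, 5 were higher and 2 lower. The balance of directions depended on GC content: with the GC trend of each library removed, 20 were higher and 12 lower. Without WT DMSO replicate 1, 23 were higher and 23 lower. In the authors' deposited table, 9 transcripts were higher and 15 lower of 188 (q below 0.05), and the share of all transcripts was not computed.

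The genes with the largest rise were of several families. Kcnh7, an ether-a-go-go-related channel of brain, was at 1.61, 0.498 and 0.630 CPM in WT and 7.21, 8.28 and 5.69 CPM in K27M cells (7.71-fold, log2 fold change 2.95, SE 0.38, edgeR adjusted p = 0.00202). Cacna2d1, an extracellular calcium channel subunit that binds gabapentin, was at 54.3, 29.5 and 30.9 CPM and 122, 119 and 114 CPM (log2 fold change 1.66, SE 0.25, edgeR adjusted p = 0.00327). Both had their highest WT value in replicate 1, still below every K27M library. Kcnn2, a small-conductance calcium-activated channel, was at 15.2, 15.8 and 13.5 CPM and 36.4, 34.1 and 36.1 CPM (log2 fold change 1.30, SE 0.08, edgeR adjusted p = 0.000369). Kcnd2, an A-type channel, was at 21.0, 15.4 and 17.4 CPM and 36.6, 37.8 and 35.0 CPM (2.07-fold, edgeR adjusted p = 0.0019). For neither gene did the groups overlap.

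Scn7a, the sodium sensor of glia, rose by 2.09 on the log2 scale from 0.265 to 1.51 CPM in WT and 3.42 to 3.63 CPM in K27M cells. Scn1a, the sodium channel of inhibitory interneurons, had 0 counts in WT and 71 in the 3 K27M libraries, at least 13.4-fold higher against a floor of 3 counts over the group. It rests on 1 transcript, which could be listed there only through the K27M libraries. Another transcript of the gene is listed only under the inhibitor.

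Several genes were lower in K27M cells. Kcnk1, a weakly inward-rectifying background channel, was at 14.9, 19.1 and 17.6 CPM in WT and 4.99, 4.70 and 4.68 CPM in K27M cells (3.49-fold, log2 fold change -1.80, SE 0.10, edgeR adjusted p = 0.000286). Cacng8, an AMPA receptor regulator of the gamma family, was at 14.9, 15.96 and 16.7 CPM and 6.53, 7.34 and 7.83 CPM (2.13-fold, log2 fold change -1.09, SE 0.09, edgeR adjusted p = 0.00069). Kcnmb4 was lower by 0.84 on the log2 scale and Hcn2 by 0.94, and Kcnc1 was lower with a log2 fold change of -0.50 (327, 388 and 398 against 260, 251 and 256 CPM). Some small differences turned with the GC trend removed: on the log2 scale Cacna1h went from -0.25 to 0.10, Cacng4, an AMPA receptor regulator, from -0.22 to 0.01 and Kcnip3 from -0.18 to 0.06. The call on Cacna1h was also lost without WT DMSO replicate 3 (adjusted p = 0.0582), K27M DMSO replicate 1 (0.0590) or K27M DMSO replicate 2 (0.0589). That on Kcnip3 was lost without WT DMSO replicate 2 (0.0555) or 3 (0.0825) or any 1 of the K27M DMSO libraries (0.0659 to 0.0885).

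**Figure D3:**
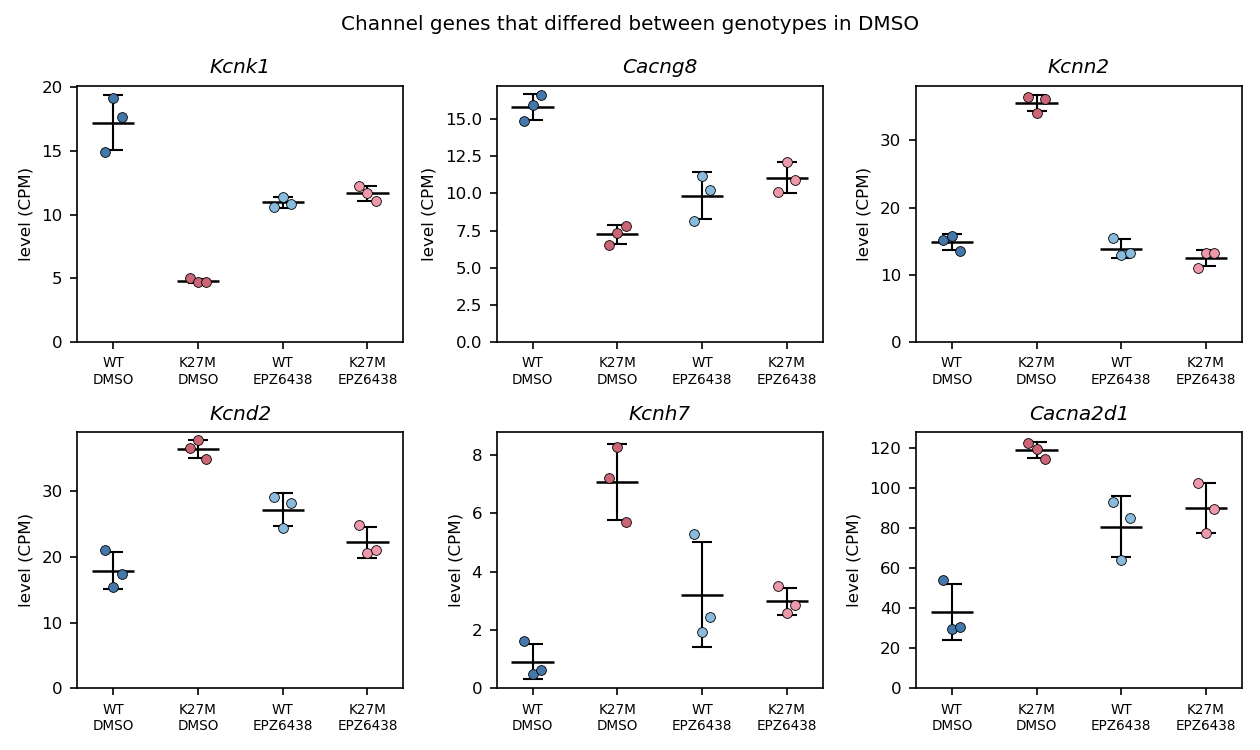
Level in CPM of 6 channel genes in each library (points), with mean and SD (lines), for the 4 groups of 3 libraries, linear axes from 0. Kcnk1 and Cacng8 are lowest in K27M DMSO, Kcnn2, Kcnd2, Kcnh7 and Cacna2d1 are highest there, and the genotypes lie close together under the inhibitor.

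Under the inhibitor, 1 channel gene of 86 differed between genotypes, Kcnj10, lower in K27M cells, and none was higher (edgeR, 0.567% of all genes higher, 1.23% lower and 1.79% either). At an unadjusted p under 0.05 there were 15 (17.4%, beside 16.7% of all genes), and DESeq2 called 1. With the GC trend removed 1 was higher and 6 lower. Of the 78 channel genes tested in both genotype comparisons, called or not, 63 (80.8%) had a smaller absolute log2 fold change under the inhibitor, beside 81.4% of all genes. The median absolute value was 0.49 in DMSO and 0.18 under the inhibitor over these channel genes, and 0.33 and 0.10 over all genes. Kcnk1, for example, was at 10.6, 11.4 and 10.9 CPM in WT and 12.3, 11.7 and 11.1 CPM in K27M cells (log2 fold change 0.09, SE 0.10, edgeR adjusted p = 0.695). Kcnn2 had a log2 fold change of -0.15 (SE 0.12), Cacna2d1 of 0.17 (SE 0.14) and Kcnj16 of -0.25 (SE 0.08, edgeR adjusted p = 0.19). A p that misses the threshold does not show that levels were equal.

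**Figure D4:**
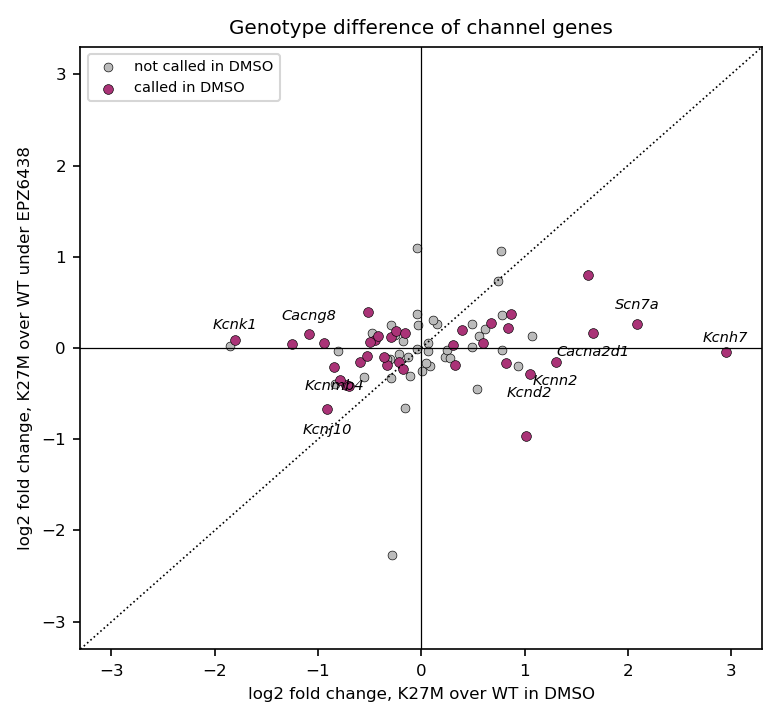
Log2 fold change of K27M over WT in DMSO (horizontal) against that under the inhibitor (vertical) for 78 channel genes, with the 37 called in DMSO in purple, equal scales and a dotted line of equality. Of the 78 genes, 63 lie nearer to 0 under the inhibitor than in DMSO, and Kcnj10 is the gene called in both. Scn1a is left out.

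The interaction term, which tests whether the inhibitor response differed between genotypes, was called for 21 of 84 channel genes, 11 with a higher and 10 with a lower response in K27M cells, beside 20.0% and 15.8% of all genes (35.8% in either direction). With the GC trend removed 6 were higher and 11 lower, and without WT DMSO replicate 1 the numbers were 13 and 19. The response of 5 genes was called in opposite directions in the genotypes: Cacna2d1, Kcnd2 and Kcnh7 rose in WT and fell in K27M cells, and Kcnk1 and Cacng8 did the reverse. These 5 were picked out after their values were seen, and the inhibitor comparisons and the genotype comparison in DMSO share the DMSO libraries. How many of all genes had opposite calls was not counted. Kcnk1 fell in WT by 0.62 on the log2 scale and rose in K27M cells from 4.99, 4.70 and 4.68 to 12.3, 11.7 and 11.1 CPM (log2 fold change 1.28, edgeR adjusted p = 2.89e-06), a difference of 1.94 (SE 0.14, edgeR adjusted p = 1.46e-05).

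Cacng8 had responses of -0.65 in WT and 0.59 in K27M cells, a difference of 1.28. Kcnd2 had 0.62 and -0.71, Kcnh7 1.77 and -1.23, and Cacna2d1 1.08 and -0.40, and the differences were -1.30, -2.96 and -1.48. Their WT rises were lost on leaving out single libraries. For Kcnd2 the adjusted p was 0.0515 without WT DMSO replicate 3, 0.0570 without WT inhibitor replicate 1 and 0.0614 without replicate 3. For Kcnh7 it was 0.0988 without WT DMSO replicate 2, 0.120 without replicate 3, 0.126 without WT inhibitor replicate 1 and 0.0797 without replicate 3, and for Cacna2d1 0.0525, 0.0638, 0.0715 and 0.0749 without the same 4 libraries. Kcnn2 fell in K27M cells by 1.53 on the log2 scale, from 36.4, 34.1 and 36.1 to 11.0, 13.2 and 13.2 CPM, and in WT its value was -0.07 (edgeR adjusted p = 0.636), a difference of -1.42 (SE 0.14, edgeR adjusted p = 8.31e-05).

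The other genes of membrane excitability were described by a list of 34 from general knowledge, 32 of them listed: accessory proteins, sodium pump subunits, chloride transporters and glial water and ion handling genes. Of 31 tested in DMSO, 9 were higher and 10 lower in K27M cells, near the shares of all genes (29.8% and 30.4%). The inhibitor raised 11 and lowered 6 of 31 in WT (21.4% and 20.7% of all genes), and raised 16 and lowered 12 of 32 in K27M cells (28.9% and 27.3%). The water channel Aqp4 was higher in K27M cells in DMSO (log2 fold change 1.60) and fell there with the inhibitor (-2.37). Unc80, of the sodium leak channel complex, rose by 1.57 in WT and 1.64 in K27M cells on the log2 scale. Under the inhibitor 2 of 32 were lower in K27M than in WT cells and none was higher (1.23% and 0.567% of all genes). The interaction was called for 5 with a higher and 6 with a lower response of 31, near the shares of all genes (20.0% and 15.8%).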

How the data were processed

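Polyadenylated RNA was sequenced on a HiSeq2500 after TruSeq preparation, per the labels' protocols. Per the submitters' processing notes, kallisto and sleuth were used with the builds GRCm38 and mm10; for tool versions, annotation and strandedness the entry is "not given in the sources used here". Each of 4 deposited tables holds estimated counts per transcript for a pair of groups, and also the authors' q-values and their effect, a natural log difference. The authors' estimated counts had been divided by a size factor per library, which was read from the steps between low values and undone: 44.9 to 57.4% of low values then came out whole, within 0.01. No transcript was listed with fewer than 3 libraries at 5 or more counts.

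Counts were summed per gene, rounded and tested with edgeR 4.0.16 (quasi-likelihood, TMM, filterByExpr, Benjamini-Hochberg adjustment over all genes, 0.05) in R 4.3.3, on 6 libraries per comparison and on 12 for the interaction, over the 34436 transcripts listed in all 4 tables. The deposited q-values were used only where the authors' tables are named. Standard errors are the log2 fold change divided by the square root of F. Levels (CPM) share 1 TMM scale over 12 libraries; those beside a test sum the transcripts of that comparison's table, and those in the figures sum all listed transcripts. Because tables list different transcripts, the sums of 19 channel genes differ between tables by over 10%. Transcripts without a gene name, 0.450 to 0.577% of counts, were left out.

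The members and all gene lists were chosen with earlier results of these data known. The text names Kcnj10, per comparison the 8 top called genes in each direction (6 for the interaction) by fold among those averaging 1 CPM or more in a group, genes at 0 in 1 group, and the 4 most abundant members per family. Some genes that meet this rule are not reported here. Further genes, values that did not pass and the promoters shown were chosen after values were seen, and 1 promoter was replaced after its sequence was seen. A comparison of CG content between groups of responding genes and a motif search were tried and dropped. Alternatives were DESeq2 1.42.0, its size factors, no filter, removal of each library's GC trend, a replicate block, leaving out each library, a 12-library fit and, added after seeing the data, all transcripts listed in any table.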

Additional observations from a re-analysis of the deposited data

Results flagged for a closer look

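The inhibitor response of 16 channel genes among those named differed between genotypes by the interaction test (edgeR, adjusted p below 0.05), given as the K27M minus the WT response on the log2 scale. The response was higher in K27M cells for Kcnk1 (1.94), Cacng8 (1.28), Kcnj4 (0.96), Kcnmb4 (0.67), Kcnc1 (0.61), Kcnt1 (0.52), Cacna1h (0.48), Kcnab2 (0.48) and Kcnj10 (0.29). It was lower in K27M cells for Kcnh7 (-2.96), Kcne1l (-1.95), Scn7a (-1.79), Cacna2d1 (-1.48), Kcnn2 (-1.42), Kcnd2 (-1.3) and Kcnk2 (-0.48). With the GC trend removed, Scn7a was no longer called lower, and Cacna1h and Kcnt1 were no longer called higher. The number called higher went from 2 to 1 in each of 4 families: inward rectifiers, accessory potassium channel subunits, voltage-gated potassium channels and calcium channel auxiliary subunits. It went from 0 to 1 among sodium channel beta subunits.

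Among them, Kcnc1, the fast delayed rectifier, was at 260, 251 and 256 CPM in K27M DMSO and at 405, 417 and 401 CPM with inhibitor (log2 fold change 0.67), while in WT cells, at 327, 388 and 398 CPM in DMSO, its value was 0.10 (edgeR adjusted p = 0.276). The call on Kcnj4 was lost in 7 of the 12 fits without 1 library (adjusted p up to 0.0618) and that on Kcnt1 in 9 (up to 0.105).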

How the results depend on the processing

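With the GC trend removed, in K27M against WT in DMSO 12 channel genes were lower (11 with the replicate block as well), the interaction was higher for 6 (6 with the block), and under the inhibitor 1 was higher and 6 lower (1 and 6 with the block). With the replicate block alone, under the inhibitor 1 was higher and 2 lower. In the pairing check, same-numbered libraries correlated at -0.03 to 0.32 and not every library matched its own number best. The highest values were for replicates 1 and 2 of the inhibitor comparison in WT (0.29 and 0.32), and both matched their own number. With 3 libraries per group the check cannot decide whether the numbers pair the libraries. Removing the GC trend, alone or with the block, turned the genotype values in DMSO of Cacna1h (0.10 and 0.10), Cacng4 (0.0070 and 0.0075), Kcnip3 (0.060 and 0.061) and Kcnj16 (-0.54 and -0.52), the WT inhibitor values of Hcn2 (0.11 and 0.048) and Kcnn2 (0.0016 and 0.0028) and the K27M inhibitor value of Scn7a (0.091 and 0.096). The 12-library fit gave Kcnj16 -0.021 in DMSO. The cause was not tested.

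Leaving out each library gave 12 to 23 higher and 15 to 23 lower in DMSO between genotypes, 19 to 30 and 10 to 16 for the inhibitor in WT, 37 to 43 and 20 to 22 in K27M cells, 0 and 1 under the inhibitor, and 8 to 13 and 8 to 19 for the interaction. The 19 rises in WT came without WT DMSO replicate 3 and the 19 lower interaction values without WT DMSO replicate 1. Values that turned were Kcnj16 in DMSO (-0.20 to 0.26, negative without WT DMSO replicate 3 or K27M DMSO replicate 1 or 2), and in WT with inhibitor Hcn2 (-0.29 to 0.29, positive without WT DMSO replicate 1 or WT inhibitor replicate 3) and Kcnc1 (-0.017 to 0.12, negative without WT DMSO replicate 1).

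Of 91 further values that did not pass the test and are given by counts or ranges, 39 changed sign and 33 passed under some setting. Depth limits the 30 genes under 1 CPM.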
